A study of Mus musculus with 3 samples.

Results

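The RAS, RAF, MEK and ERK kinase cascade was followed here through 7 of its genes, in J1 mouse embryonic stem cells (mESCs) treated with an inhibitor of MEK. The genes were Hras and Nras, which encode RAS GTPases, Araf and Braf, which encode RAF kinases, Map2k1 and Map2k2, which encode MEK1 and MEK2, and Mapk3, which encodes ERK1. They were represented by all probes, other than controls, whose transcript accession matched one of these symbols. There were 15 such probes of 55681 on the array, and the 7 genes were among 20660 that could be named.

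The 3 samples formed 1 group. They were J1 cells, an mESC line of the strain 129S4/SvJae, kept on gelatin without feeders in knockout DMEM with knockout serum replacement and leukemia inhibitory factor (LIF) at 1000 U/mL, and given 1 µM PD0325901 (PD) for 24 h. According to the methods they came from independent experiments, and all of them came from a single cell line. The study set PD against DMSO, but cells without PD were not analysed here. The values below therefore describe PD-treated cells and their spread, and contain no effect of PD.

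Growth factor receptors load RAS with GTP, and GTP-bound RAS recruits RAF kinases to the membrane, where they become active. RAF phosphorylates MEK, a kinase of dual specificity, and MEK phosphorylates ERK, which acts on transcription factors and further kinases. In mESCs the cascade is driven largely by Fgf4 that the cells make themselves, and it favours exit from self-renewal. PD is an allosteric inhibitor of MEK1 and MEK2. It acts on the proteins, whereas the arrays measured transcripts, so neither kinase activity nor phosphorylation was recorded.

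The cell type given in the labels was checked first. Without untreated cells in the analysis, the treatment label could not be checked. Of the mESC markers Pou5f1, Sox2, Nanog, Klf4, Esrrb, Zfp42, Fgf4 and Tdgf1, 8 of 8 were detected on all 3 arrays, that is, with at least 1 probe well above background in at least 50% of its spots, beside 72.8% of all named genes. Of other cell types, 0 of 3 trophoblast, 1 of 3 mesoderm, 3 of 6 fibroblast, 2 of 2 neural and 3 of 3 primitive endoderm markers were detected. Beside the share of 72.8%, such counts say little about identity where a list is detected in full. Below detection on at least 1 array were Cdx2, Elf5 and Hand1 (trophoblast), Mixl1 and T (mesoderm), and Col3a1, Lum and Postn (fibroblasts), of which T passed on 2 arrays and Col3a1 on 1. Whether the detected transcripts came from other cells was not tested. The arrays had detection rates between 63.1% and 65.2% of probes, no spot was saturated, and replicate 2 carried 187 spots marked as non-uniform by the scanner software against 25 and 8 on replicates 1 and 3.

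All 7 cascade genes were detected in PD-treated cells. At least 1 probe was well above background on all 3 arrays for 7 of 7 genes, beside 72.8% of all named genes. With every probe of a gene required, it was 6 of 7, beside 68.0%. By probe, 14 of 15 were detected on all 3 arrays, beside 60.3% of all probes. The exception was a probe of Hras. Levels are given as the log2 of the processed signal minus that of the 75th percentile of the array, so 0 is a signal of 551, 511 and 527 on replicates 1 to 3. Of the 14 detected probes, 12 lay above this mark on every array and 2 below it on every array. The mark was taken over all probes, detected or not, so detected probes lie above it more often than all probes do. The share of all detected probes above it was not counted, and nothing particular to the cascade is read from the 12. Signals of different probes depend on the sequence of the probe, so dim and bright describe signals on the array, and no difference in transcript level was read between probes. Means over the probes of a gene are given to compare arrays.

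**Figure D1:**
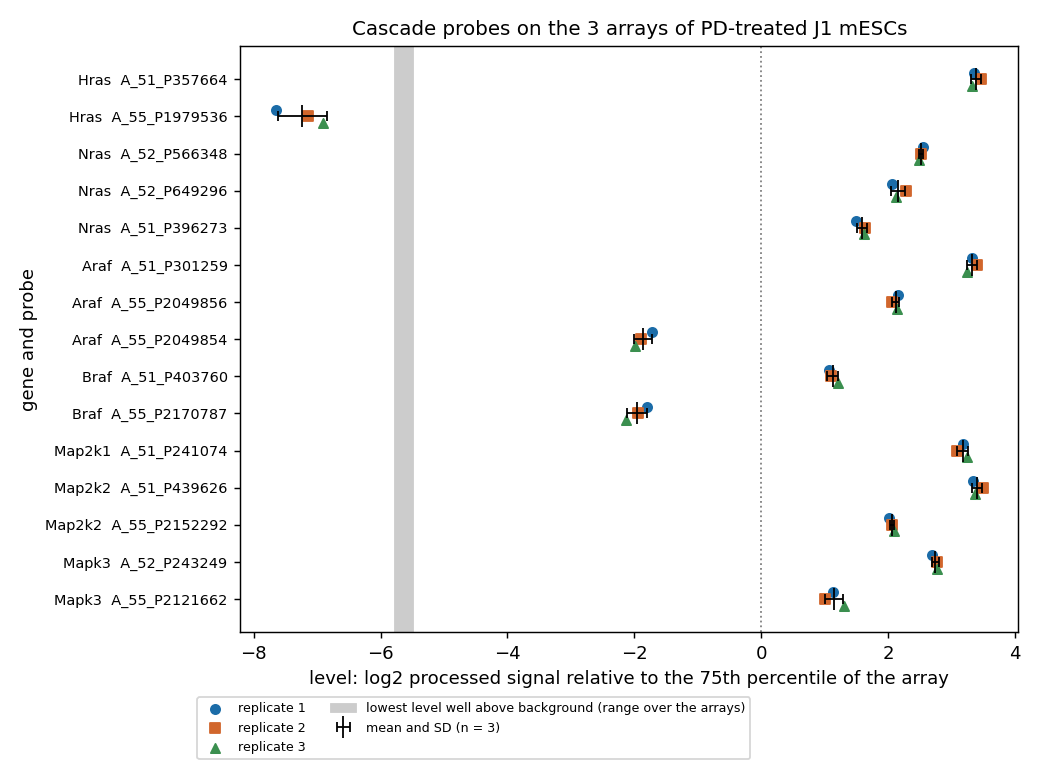
Level (log2 processed signal relative to the 75th percentile of the array, dotted line at 0) of the 15 cascade probes on each of the 3 arrays, with the mean and SD (n = 3). The grey band spans the lowest level flagged well above background on the arrays. Only the Hras probe A_55_P1979536 lies left of the band, 12 probes lie right of the dotted line, and 1 probe each of Araf and Braf lies between them.

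Hras encodes a RAS GTPase that is anchored in the plasma membrane by lipid groups. Its probe A_51_P357664, matched through NM_008284, had levels of 3.36, 3.47 and 3.32 on replicates 1 to 3, a mean of 3.38 ± 0.08 (SD, n = 3 here and below). The corresponding signals were 5655, 5674 and 5250. The other probe, A_55_P1979536, carries the accession NM_001130444, another transcript of the gene, and was well above background on 0 arrays. Its signals of 2.73, 3.60 and 4.40 were below the lowest signal well above background, which was 10.1, 11.4 and 10.3 on the respective arrays. Such a split, with some probes of a gene detected and others not, was found for 974 (17.8%) of the 5476 genes that had several probes. No fold change between both probes was formed. The software gave errors of 101%, 87.2% and 63.6% for the 3 signals of the dim probe, and the order of its values is therefore without meaning.

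Nras, the other RAS gene of the group, was measured by 3 probes, each matched through NM_010937. Probe A_52_P566348 had levels of 2.56, 2.53 and 2.49, the smallest SD of the detected cascade probes (2.52 ± 0.03). Probe A_52_P649296 had levels of 2.07, 2.29 and 2.12 (2.16 ± 0.12), with replicate 2 the high one. Probe A_51_P396273 had levels of 1.49, 1.64 and 1.63 (1.59 ± 0.08), with replicate 1 the low one. The latter probes thus shared their highest array, replicate 2, and their lowest, replicate 1, whereas the first probe was highest on replicate 1. Averaged over the 3 probes, the level of Nras was 2.04, 2.15 and 2.08, a mean of 2.09 ± 0.06. Probe A_51_P396273 was the only cascade probe in a part of the array of replicate 2 with many non-uniform spots, 20 in its block of the 48 blocks into which each array was divided. Its levels on replicates 2 and 3 were 0.071 combined errors apart, in the sense used below.

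Araf encodes a RAF kinase and lies on the X chromosome. Probe A_51_P301259 (NM_009703) had levels of 3.33, 3.40 and 3.24 (3.32 ± 0.08). A further pair of probes carries the accession NM_001159645. Of these, A_55_P2049856 had levels of 2.16, 2.06 and 2.14 (2.12 ± 0.05), and A_55_P2049854 had levels of -1.72, -1.89 and -1.99 (-1.86 ± 0.14). The first of the 3 probes was highest on replicate 2, and the others were highest on replicate 1. At signals of 167, 138 and 133 the dimmest Araf probe lay well clear of the detection limits given above for Hras. Averaged over its probes, Araf had a level of 1.26, 1.19 and 1.13 (1.19 ± 0.06).

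Braf, which encodes the RAF kinase with the highest basal activity, had a pair of probes, both matched through NM_139294. Probe A_51_P403760 had levels of 1.06, 1.09 and 1.22 (1.13 ± 0.08), with replicate 3 the high one. Probe A_55_P2170787 had levels of -1.81, -1.95 and -2.13 (-1.96 ± 0.16), with replicate 3 the low one. Both probes of the same gene thus differed in opposite directions between replicates 1 and 3. The differences were 0.76 and 1.55 combined errors, both within the limit of 2 used below. The range of probe A_55_P2170787, 0.32 log2 units, was the largest of the 14 detected cascade probes. Its signals were 157, 133 and 121. The mean over both probes was -0.37, -0.43 and -0.45 (-0.42 ± 0.04), in which the opposed differences cancel in part.

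Map2k1 and Map2k2 encode MEK1 and MEK2, the direct targets of PD. Map2k1 was measured by a single probe, A_51_P241074 (NM_008927), at levels of 3.19, 3.09 and 3.25 (3.18 ± 0.08). Its signals were 5022, 4349 and 5014, and replicate 2 was the low one. Map2k2 had a pair of probes, both matched through NM_023138. Probe A_51_P439626 had levels of 3.34, 3.50 and 3.38 (3.41 ± 0.08) at signals of 5580, 5769 and 5480, with replicate 2 the high one. Probe A_55_P2152292 had levels of 2.02, 2.07 and 2.09 (2.06 ± 0.03). The CVs of these signals, which were not scaled between arrays, were 8.05% (Map2k1), 2.62% and 2.60% (Map2k2) between the independent experiments. They therefore include differences in brightness between whole arrays. On the scaled levels the SDs were 0.08 (Map2k1), 0.08 and 0.03 (Map2k2).

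Mapk3 encodes ERK1, the substrate of MEK. Its probe A_52_P243249 had levels of 2.69, 2.78 and 2.78 (2.75 ± 0.05). Its signals of 3557, 3502 and 3610, not scaled between arrays, gave the smallest CV of the detected cascade probes, 1.53%. By the SD of the scaled levels, the Nras probe A_52_P566348 and the Map2k2 probe A_55_P2152292 varied less (both 0.03). The other probe, A_55_P2121662, had levels of 1.13, 1.01 and 1.31 (1.15 ± 0.15), with a CV of 11.7%. Both carry the accession NM_011952. On replicate 2 the first was as high as on replicate 3, and the other was at its lowest. The mean over both probes was 1.91, 1.89 and 2.04 (1.95 ± 0.08).

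The differences between the arrays were then set against the errors. No cascade probe ranged over more than 1 log2 unit (0 of 14), beside 1.85% of the 33474 detected probes with an unflagged spot on each array. Ranges lay between 0.07 and 0.32 log2 units, with a median of 0.16, beside 0.17 over all detected probes. The scanner software attached an error of about 10% to each signal of the 14 probes. With the errors of both arrays combined, 0 of 42 pairs of arrays differed by more than 2 errors, beside 5.29% of the 100422 pairs over all detected probes. The largest was 1.55 errors, for the dim Braf probe between replicates 1 and 3. The next largest was 1.45 errors, for the Mapk3 probe A_55_P2121662 between replicates 2 and 3. Replicate 1 was the highest for 4 of the 14 probes, replicate 2 for 5 and replicate 3 for 5. The median absolute difference of the 14 probes was 0.077 log2 units between replicates 1 and 3, smaller than the 0.11 between replicates 1 and 2 and the 0.12 between replicates 2 and 3. Over all detected probes it was 0.090, 0.11 and 0.11 in the same order. By these medians replicate 2 lay farther from the others. Counts by probe did not single it out. Replicates 1 to 3 were the lowest for 6, 3 and 5 of the 14 probes. They were the farthest from the median of the 3 arrays for 4, 5 and 5. The limit of 2 errors was chosen after the data were seen. Since the error was about 10% for all 14 probes, this limit was nearly the same log2 difference for each. The count of 0 of 42 therefore follows from the ranges given above and adds nothing to them.

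**Figure D2:**
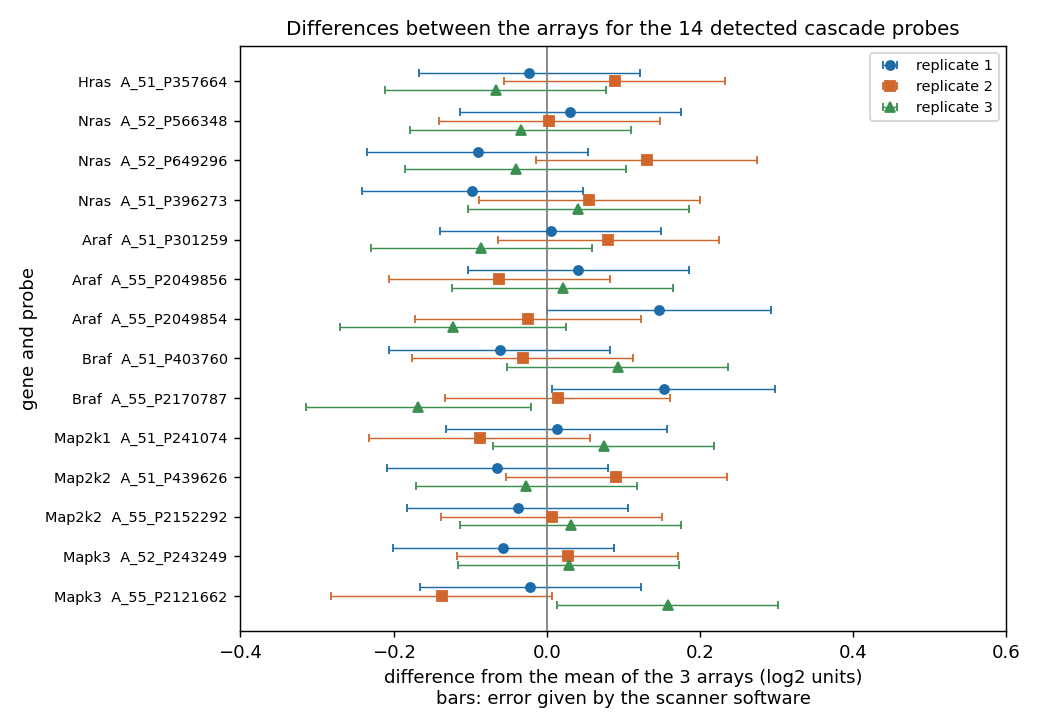
Difference of each array from the mean of the 3 arrays (log2 units) for the 14 detected cascade probes, with bars for the error that the scanner software gives for the signal. No probe spans more than 0.32 log2 units, and the replicates change places from probe to probe, also among probes of 1 gene.

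The SD over the arrays had a median of 0.082 log2 units for the 14 probes, beside 0.090 over all detected probes. Without replicate 2 it was 0.054, and without replicates 1 or 3 it was 0.085 and 0.076. The SD falls with the level, so the probes were also read against those of like level. With all detected probes in 4 equal parts by mean level, 9 cascade probes fell in the brightest part, where the median SD was 0.058, and 4 of the 9 were below it. Another 3 fell in the next part (median SD 0.071) and 2 in the one after that (0.11), and 0 of these were below the median. In all, the SDs ran from 0.03 (Nras) to 0.16 (Braf). The SD between spots of 1 array was taken for 164 probes with 10 spots per array and mean levels within the same limits. Its median was 0.064, 0.078 and 0.063 on replicates 1 to 3. Of the 14 cascade probes, 10 had SDs over the arrays above all 3 of these values. The median SD over all detected probes, 0.090, was above them too. How many of all detected probes lay above them was not counted, so nothing particular to the cascade is read from this. No cascade gene of the 7 had a probe with 10 spots, so none could be tested against the error of its own spots. Over the 284 detected probes of that kind, limma's moderated F test set the 3 arrays against the error between spots of 1 array, which is technical, and so compared these hybridisations and no condition. It called 115 (40.5%) at an adjusted p under 0.05 (Benjamini-Hochberg), and 134 had an unadjusted p under 0.05. The count was 28 without replicate 2, 76 without replicate 1, 23 with normexp background correction and 152 with scaling to the median.

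**Figure D3:**
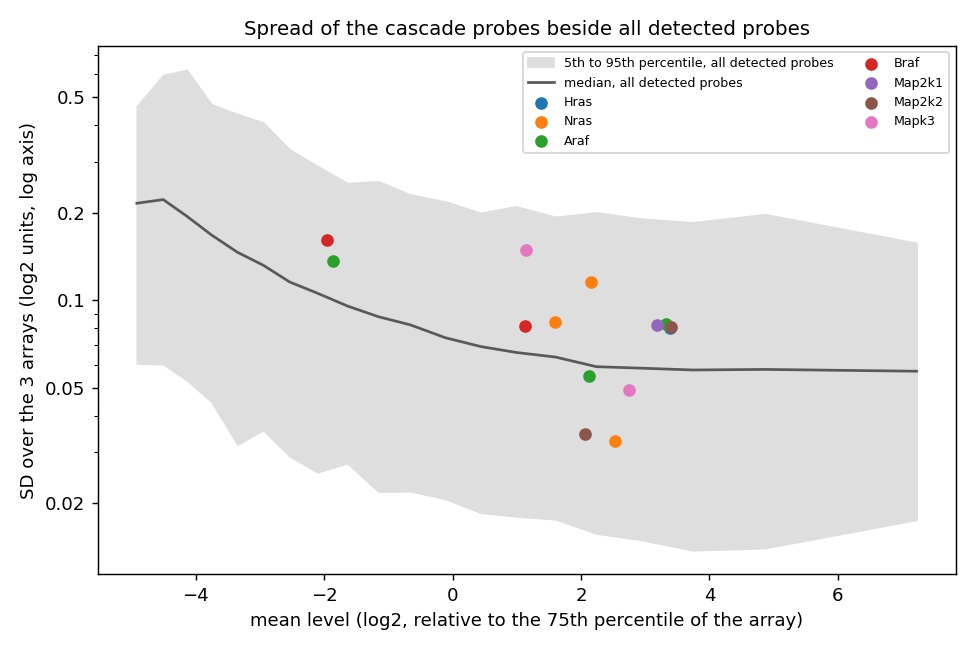
SD over the 3 arrays (log2 units, log axis) against mean level (log2) for the 14 detected cascade probes, coloured by gene. The grey line and band are the median and the 5th to 95th percentile over all detected probes in 20 bins of level, and every cascade probe lies within the band.

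The start sites of the genes were examined for features that the choice of members had not used. RefSeq windows of 300 bases, 250 before and 50 after an annotated start, were given for 6 of the 7 genes, all but Mapk3, in the build GRCm38.p6. They had a GC content between 52.0% (Araf) and 69.0% (Hras and Map2k1), beside a median of 52.7% over 32851 windows of all genes. The ratio of observed CpG to that expected from the C and G content was between 0.69 (Araf) and 1.02 (Map2k2), beside a median of 0.38, and 70.2% of all windows had a ratio below that of Araf. Short motifs were searched on both strands. The GC box, GGGCGG, was in 5 of the 6 windows, all but that of Araf (35.7% of all windows), and the CCAAT box was in 3, those of Araf, Hras and Map2k1 (37.4%). The TATA box, TATAAA, was in 0 of 6 (13.6% of all windows), as were the ETS motif CCGGAAGT (3.89%) and the AP-1 motif TGACTCA (5.20%). The CRE motif, TGACGTCA, was in the window of Braf alone (1.79% of all windows). A match of letters is not a site of binding, and binding was not measured. The medians and shares are over the windows of all genes, whereas all 6 genes here were detected. Windows of detected genes alone were not counted, so nothing particular to the cascade is read from the comparison.

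The 250 bases before the start are shown for Map2k1 and Map2k2, whose products PD binds, and for Braf, which carries the CRE motif. They run from 5′ to 3′ on the strand of the gene, and capitals mark matches to the searched motifs. Map2k1 has 4 GC boxes and 2 CCAAT boxes here, Map2k2 has 1 GC box, and Braf has 2 CRE motifs and 1 GC box.
Map2k1, chr9:64253606-64253855, minus strand: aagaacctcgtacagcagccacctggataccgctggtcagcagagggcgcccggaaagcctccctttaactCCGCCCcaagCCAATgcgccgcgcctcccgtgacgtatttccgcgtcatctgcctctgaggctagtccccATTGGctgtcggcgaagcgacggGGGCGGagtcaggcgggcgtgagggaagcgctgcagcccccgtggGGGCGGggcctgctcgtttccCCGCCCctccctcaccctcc
Map2k2, chr10:81105665-81105914, plus strand: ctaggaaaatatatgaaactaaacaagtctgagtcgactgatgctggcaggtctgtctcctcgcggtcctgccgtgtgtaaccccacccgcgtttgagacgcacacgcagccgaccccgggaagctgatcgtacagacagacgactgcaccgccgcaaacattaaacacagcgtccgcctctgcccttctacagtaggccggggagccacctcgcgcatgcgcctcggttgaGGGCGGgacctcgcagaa
Braf, chr6:39725464-39725713, minus strand: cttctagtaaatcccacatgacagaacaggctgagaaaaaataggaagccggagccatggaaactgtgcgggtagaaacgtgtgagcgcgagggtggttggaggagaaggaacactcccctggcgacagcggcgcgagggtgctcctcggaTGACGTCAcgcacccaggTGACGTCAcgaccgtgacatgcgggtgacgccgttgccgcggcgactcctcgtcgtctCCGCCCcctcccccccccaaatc

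The surroundings of the cascade were described by lists of genes that act on it, run beside it or follow it. Their counts of detected genes stand beside 72.8% of all named genes, and nothing particular to a list is read from them. The largest SD of a list is that among the brightest probes of its detected genes. The 6 further RAS, RAF and ERK genes of the first list were all detected. Of the nucleotide exchange factors, which load RAS with GTP, and the GTPase activators, which turn it off, 15 of 16 on the array were detected. The exception was the exchange factor gene Rasgrf1, with 2 probes on 0 arrays. Its brighter probe had a mean signal of 9.37 ± 2.60. Rasgrf2, its paralogue, had 1 of 2 probes detected, at a level of -1.29 ± 0.10, while the other was at a signal of 3.65 ± 1.34. Rasgrp3, an exchange factor regulated by diacylglycerol, was the detected gene of this list with the largest SD, at levels of -5.33, -5.18 and -5.57 (-5.36 ± 0.19), just above the limit of detection.

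The enzymes that attach, trim or move the lipid groups of RAS were detected in 9 of 9 cases (72.8% of all named genes). By the brightest probes, Fntb, the beta subunit of farnesyltransferase, had the largest SD among them. Its levels were -0.09, 0.17 and 0.06 (0.04 ± 0.13). A dimmer probe of Zdhhc9, given in the last section, had an SD of 1.15. Of the scaffolds and modulators, 14 of 15 were detected, all but Paqr3, a Golgi protein that holds RAF away from the plasma membrane, which passed on 2 of 3 arrays at a level of -4.94 ± 0.36. Lamtor2 had by far the largest SD of this list. It encodes a partner of Lamtor3, a scaffold that brings MEK1 and ERK1 together on late endosomes. Its levels were 4.29, 3.29 and 4.67 (4.08 ± 0.71), with replicate 2 the low one, and by its brightest probe it was the 1 detected gene of these lists whose range passed 1 log2 unit. The single spot lay in a block with 27 non-uniform spots on the array of replicate 2, and the part of that block in the value was not tested.

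Kinases that ERK activates, the RSK, MSK and MNK families, were detected in 8 of 8 cases, and the largest SD was that of Mknk2 at a level of 4.14 ± 0.12, with replicate 1 the low one. The MAP kinase kinases and MAP kinases that run beside the cascade were detected in 16 of 16 cases, again beside 72.8%. The stress kinase gene Mapk8, which encodes JNK1, had the largest SD, with levels of -1.99, -2.19 and -1.49 (-1.89 ± 0.36) for its brightest probe. Mapk10, which encodes JNK3, had 1 of 2 probes detected, at a level of -3.11 ± 0.10, and the other, named for a different transcript, had a signal of 3.59 ± 1.13. For the brightest probes of the further RAS, RAF and ERK genes the median SD was 0.067 log2 units, with a highest SD of 0.28, above the 0.083 that was the highest for the brightest probes of the 7 cascade genes. Median SDs of the brightest probes were 0.079, 0.059, 0.048, 0.056 and 0.075 log2 units for the exchange factors and activators, the lipid enzymes, the scaffolds, the ERK-activated kinases and the parallel kinases, beside 0.081 for the 7 cascade genes.

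**Figure D4:**
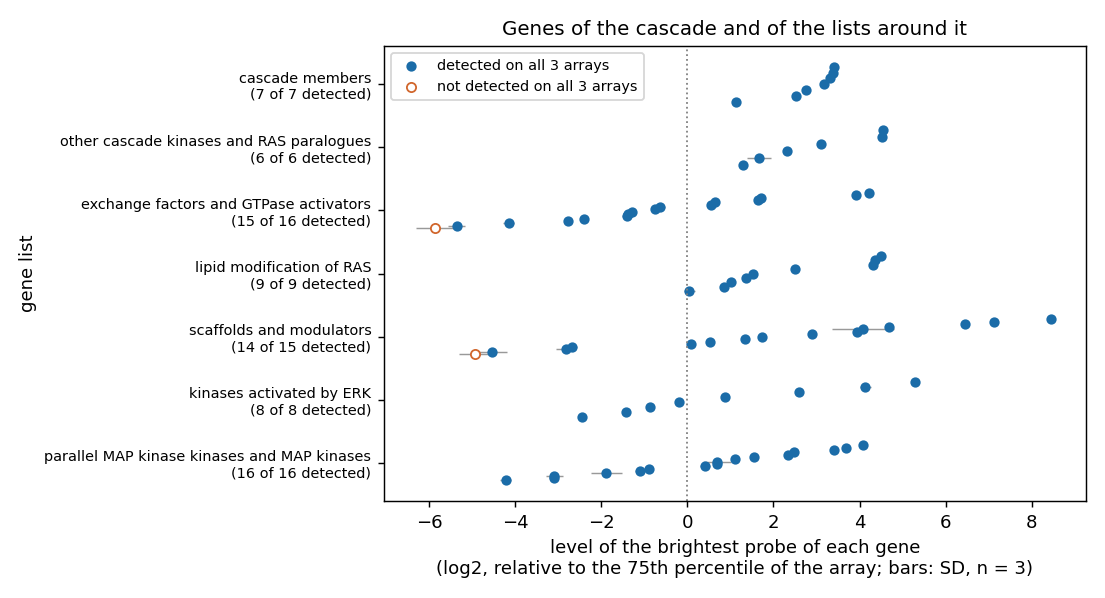
Level of the brightest probe of each gene (log2, relative to the 75th percentile of the array, dotted line at 0) by list, with bars for the SD (n = 3). Filled points are genes with a probe detected on all 3 arrays, and the open points are Rasgrf1 and Paqr3. By their brightest probes the 7 cascade genes lie right of the dotted line, as do genes of every other list. The share of all named genes there was not counted, and nothing particular to the cascade is read from this.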

How the data were processed

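Total RNA of 3 PD-treated J1 samples was labelled with Cy3 and hybridised to 1 Agilent mouse array each, all on 1 slide and in 1 scan per the file headers. The authors deposited spot intensities from Agilent Feature Extraction 10.7.3.1 (10.7 in the submitters' processing notes), which subtracted the background and removed spatial trends within each array, with flags and an error per spot. No normalization between arrays was applied to these intensities. They also deposited a log2 value per probe and sample, whose normalization is not given in the sources used here. The grid of the array refers to mm9, so no coordinates were taken from it.

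Accessions without versions were matched to RefSeq genes (table for the assembly GRCm38.p6), which named 27235 of 55681 probes (48.9%). Log2 signals were averaged over spots without outlier flags, and the 75th percentile over probes was subtracted. Detection required the well-above-background flag in 50% of spots on each array. SDs are over 3 arrays, whose number limits their precision. Combined errors are the root of the summed squared errors of 2 arrays. The F test used limma 3.58.1 in R 4.3.3 and was tested on simulated data; other steps used Python 3.11.15. Promoter windows run along the gene's strand, since TATAAA was most frequent 30 and 29 bases before the start on the plus and minus strand.

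The members and the gene lists were chosen with earlier results of these data known, and all probes of the members are given. From the lists of genes around the cascade, genes not detected and genes with only some probes detected are named. The gene with the largest SD by its brightest probe is also named. From the marker lists the genes not detected are named. Single genes of the list of further RAS, RAF and ERK genes are not reported here. No genes of like pattern were sought, since 3 replicates of 1 condition give none. Alternatives were other scalings, quantile normalization, normexp on the spot and background medians with an offset of 50, the deposited log2 table, other detection rules, no filter and leaving out each replicate. Probe sequences were not used, and hybridisation between paralogues was not tested.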

Additional observations from a re-analysis of the deposited data

How the results depend on the processing

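No paired analysis was possible because there was 1 group of samples. The counts of detected cascade probes (14) and genes (7) did not change with the looser flag for positive and significant signals and without any 1 replicate, and with all probes of a gene required the count of genes was 6. The count of cascade probes with a range over 1 log2 unit was 0 in all 9 alternatives run. Their median SD lay between 0.077 and 0.090 with the other scalings, normexp correction, the deposited table and no filter, and between 0.054 (without replicate 2) and 0.085 (without replicate 1) when a replicate was left out. The median level of the 14 probes, 2.14, was 5.88 relative to the median of each array and 0.22 relative to the 75th percentile of the detected probes, since both move all probes of an array alike. It was between 2.12 and 2.15 without any 1 replicate. With normexp correction the levels of 4 of the 15 probes moved by less than their SD, and dim probes rose most, from -1.96 to -1.47 for Braf A_55_P2170787 and from -7.24 to -3.20 for Hras A_55_P1979536. With quantile normalization, the deposited table or a replicate left out, 15 of 15 levels moved by less than their SD. The count of array pairs and its alternatives were chosen after the data were seen. It was 0 of 42 with 2 combined errors as the limit, also with median scaling and quantile normalization. With 1 combined error it was 4 of 42. The share over all detected probes was not counted at that limit, so whether 4 is few or many was not tested. Of the 10-spot probes, 23 differed between the arrays after normexp correction, against 115, and between 28 and 86 when a replicate was left out, the lowest count being that without replicate 2 and 76 that without replicate 1. Each cascade probe had 1 spot per array, so its error rests on the scanner software.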

Other observations

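Zdhhc9, which encodes the palmitoyltransferase that acts on RAS together with Golga7, was measured by a pair of probes, and the following was noticed after the values were seen. Its bright probe had a level of 1.36 ± 0.07, and its dim probe, A_55_P1969796, had levels of -5.22, -3.07 and -4.84, a range of 2.15 log2 units with replicate 2 the high one. The dim probe lay in a block with 20 non-uniform spots on the array of replicate 2, as many as in the block of the Nras probe A_51_P396273. The part of the block in the value was not tested.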
